A study of Homo sapiens with 6 samples.

Results

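DNA damage and p53 target genes were examined for peaks of SUMO-2/3, ubiquitin-like modifiers that are conjugated to many transcription factors and co-regulators, on the chromatin of HL-60 cells, a human acute myeloid leukemia line. The 33 genes were chosen by name as well-known targets of p53, out of 19811 coding genes of the GENCODE annotation. The naming rule uses no peak, but the list was drawn up with earlier results of these data known. The series holds 6 samples. A SUMO-2/3 ChIP-seq library was made for mock-treated cells (water), for cells given 2 µM cytosine arabinoside (Ara-C) and for cells given 1 µM daunorubicin (DNR), each for 2 h, and the other 3 samples are the inputs, which were not analysed here. Each immunoprecipitation used 2 µg of antibody, and 3 biological replicates were pooled before the library was made, so each condition is 1 library and 1 peak list. No replicate check of any difference below exists, and the 2 drugs were used at different doses.

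p53 is a transcription factor that is stabilized after DNA damage and switches on genes for cell cycle arrest, DNA repair and cell death. It binds a pair of half-sites, often upstream of a target gene or in its first intron. HL-60 cells are known to lack p53, so the genes are named here for what p53 does in other cells. SUMO conjugation of proteins bound at promoters is best known for dampening or stabilizing transcription. DNR is an anthracycline that poisons topoisomerase II and intercalates in DNA, whereas Ara-C is a nucleoside analog that stops DNA synthesis.

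A start-site peak was a peak whose midpoint lay from 2 kb upstream to 1 kb downstream of a transcription start site (TSS) of a coding transcript, and a body peak was any other peak with its midpoint in the gene. Peak overlap needed 1 bp. All positions are 1-based and in hg19. The lists give positions only. Their read depth is unknown, width was the only measure of strength, and where no peak is given the signal stayed under the authors' fixed threshold or in too short a run. Percentages carry 95% Wilson intervals and peak numbers exact Poisson intervals, which cover counting error only. For a count of 0, the share said to be allowed is 3 counts of the total, a floor that lies slightly under the Wilson limit.

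Start-site peaks that overlapped between mock and Ara-C, and recurrent intron peaks, are shown first, as sequence of the gene's own strand from GRCh37. Capitals mark the bases shared with the Ara-C peak and, for CDKN1A, with the DNR peak as well. The PLK3 mock peak (chr1:45265401-45265550, plus strand) lay upstream of the gene, and all of it was in the Ara-C peak. The DDB2 mock peak (chr11:47236701-47236950, plus strand) had its midpoint in an intron and touched coding sequence. The PERP mock peak (chr6:138427551-138427700, minus strand) lay in an intron. CDKN1A and FAS were added after their values had been seen, because an intron of each held a peak that recurred between lists. The recurrent intron peaks of PPM1D and SESN2 and the overlapping start-site peaks of TRIAP1 and TNFRSF10A are given below by position. For CDKN1A the Ara-C peak is printed (chr6:36648301-36648600, plus strand), since the mock peak was wider, and for FAS the mock peak (chr10:90751701-90751900, plus strand).
PLK3: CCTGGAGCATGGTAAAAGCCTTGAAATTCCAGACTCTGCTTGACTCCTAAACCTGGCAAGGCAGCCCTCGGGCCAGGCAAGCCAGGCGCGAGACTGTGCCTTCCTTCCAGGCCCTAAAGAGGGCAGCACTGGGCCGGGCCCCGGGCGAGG
DDB2: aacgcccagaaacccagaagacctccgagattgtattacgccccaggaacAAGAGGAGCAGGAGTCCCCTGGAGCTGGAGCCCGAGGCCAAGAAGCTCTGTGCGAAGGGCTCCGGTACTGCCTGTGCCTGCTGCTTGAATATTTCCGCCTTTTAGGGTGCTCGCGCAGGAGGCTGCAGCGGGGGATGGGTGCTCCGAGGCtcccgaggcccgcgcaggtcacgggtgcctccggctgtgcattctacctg
PERP: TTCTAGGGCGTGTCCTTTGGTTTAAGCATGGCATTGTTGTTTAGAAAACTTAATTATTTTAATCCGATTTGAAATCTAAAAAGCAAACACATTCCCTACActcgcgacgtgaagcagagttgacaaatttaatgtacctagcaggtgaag
CDKN1A: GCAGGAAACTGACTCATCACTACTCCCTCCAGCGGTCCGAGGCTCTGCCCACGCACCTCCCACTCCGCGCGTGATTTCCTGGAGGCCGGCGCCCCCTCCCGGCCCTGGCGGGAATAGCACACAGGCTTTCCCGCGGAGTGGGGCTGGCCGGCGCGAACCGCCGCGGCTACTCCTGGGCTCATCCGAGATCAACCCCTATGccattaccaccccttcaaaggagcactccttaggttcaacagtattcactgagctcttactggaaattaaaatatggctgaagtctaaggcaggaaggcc
FAS: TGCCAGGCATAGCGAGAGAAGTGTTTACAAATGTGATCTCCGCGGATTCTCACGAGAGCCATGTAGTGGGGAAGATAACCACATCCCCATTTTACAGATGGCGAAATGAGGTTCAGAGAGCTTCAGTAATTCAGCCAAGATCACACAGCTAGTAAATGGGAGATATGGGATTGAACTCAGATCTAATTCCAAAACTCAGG

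The G+C content of these stretches was 63.3% for PLK3, 63.2% for DDB2 and 60.7% for CDKN1A, against 45.0% for FAS and 37.3% for PERP. CpG dinucleotides numbered 19 in the CDKN1A stretch and 16 in that of DDB2, and 5 each in those of FAS and PERP. None of the 5 stretches held the CTCF core consensus with up to 1 mismatch, a pair of p53 half-sites with up to 1 mismatch, CCGGAAG (the core that ETS factors bind) or TGACGTCA (the cyclic AMP response element).

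SUMO-2/3 peaks at start sites of the target genes were common in mock, present in part under Ara-C and nearly absent under DNR. In mock such a peak was present at 16 of 33 target genes, or 48.5% (32.5 to 64.8), against 24.8% of all coding genes. Under Ara-C it was present at 11, or 33.3% (19.8 to 50.4), against a background of 30.2%. Under DNR it was present at 1, PERP, or 3.03% (0.537 to 15.3), against 8.06%. The mock share thus lay above that of coding genes by more than the counting interval, and the shares under the drugs did not differ from it by more than that. The mock interval held the coding share when only peaks of at least 200 bp were counted, with 27.3% (15.1 to 44.2) of target genes against 17.2% of coding genes.

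**Figure D1:**
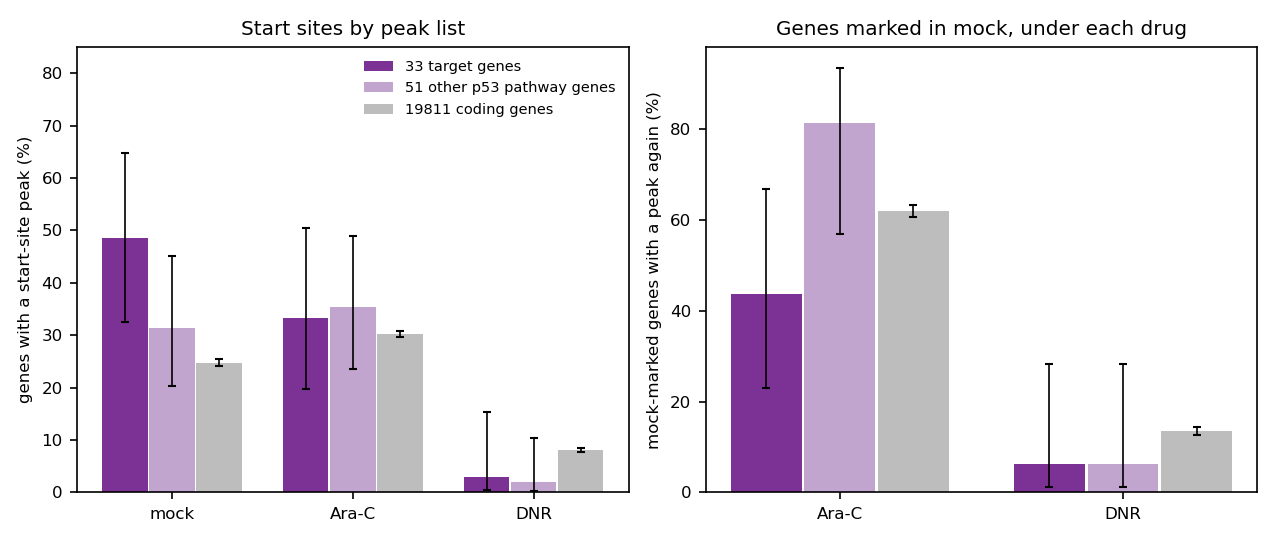
Share of genes (y axis, percent) with a start-site peak in the mock, Ara-C and DNR lists (left), and share of genes marked in mock that had a start-site peak again under each drug (right), for the 33 target genes, 51 other p53 pathway genes and 19811 coding genes. Bars are shares and error bars 95% Wilson intervals, and the target genes fall from 48.5% in mock to 33.3% under Ara-C and 3.03% under DNR.

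The genes marked in mock were followed into each drug list. Both comparisons use the same mock list. Of the 16 genes, 7 had a start-site peak again under Ara-C, or 43.8% (23.1 to 66.8), where 61.9% of coding genes marked in mock did. Under DNR 1 of 16 did, or 6.25% (1.11 to 28.3), against 13.5%. Taken by peak, 5 of the 20 mock start-site peaks of the target genes overlapped an Ara-C peak, or 25% (11.2 to 46.9) against 36.4%, and 0 of 20 a DNR peak, which allows up to 15.0%, against 4.17%. By gene, the peak overlapped an Ara-C peak at 5 of the 16 genes, or 31.2% (14.2 to 55.6), against 42.3%. It overlapped a DNR peak at 0 of 16 genes, which allows a share of up to 18.8%, against 5.12%. Of the 17 target genes without a mock start-site peak, 4 had one under Ara-C, or 23.5% (9.56 to 47.3), against 19.8%, and 0 of 17 had one under DNR, which allows up to 17.6%, against 6.27%.

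Put together by gene, 9 of the 33 target genes (27.3%) had a start-site peak in mock alone, against 8.43% of coding genes. These were MDM2, PPM1D, BBC3, AEN, FDXR, SESN1, POLH, NINJ1 and CCNG1. Another 6 genes, or 18.2% against 12.99%, had one in mock and under Ara-C, namely PLK3, DDB2, APAF1, TRIAP1, TP53I3 and TNFRSF10A. CDKN1A, GADD45B, RRM2B and TP53INP1 had one under Ara-C alone, 12.1% against 13.6%. PERP had one in each list, 3.03% against 2.35%. The remaining 13 genes had none, 39.4% against 57.0%.

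**Figure D2:**
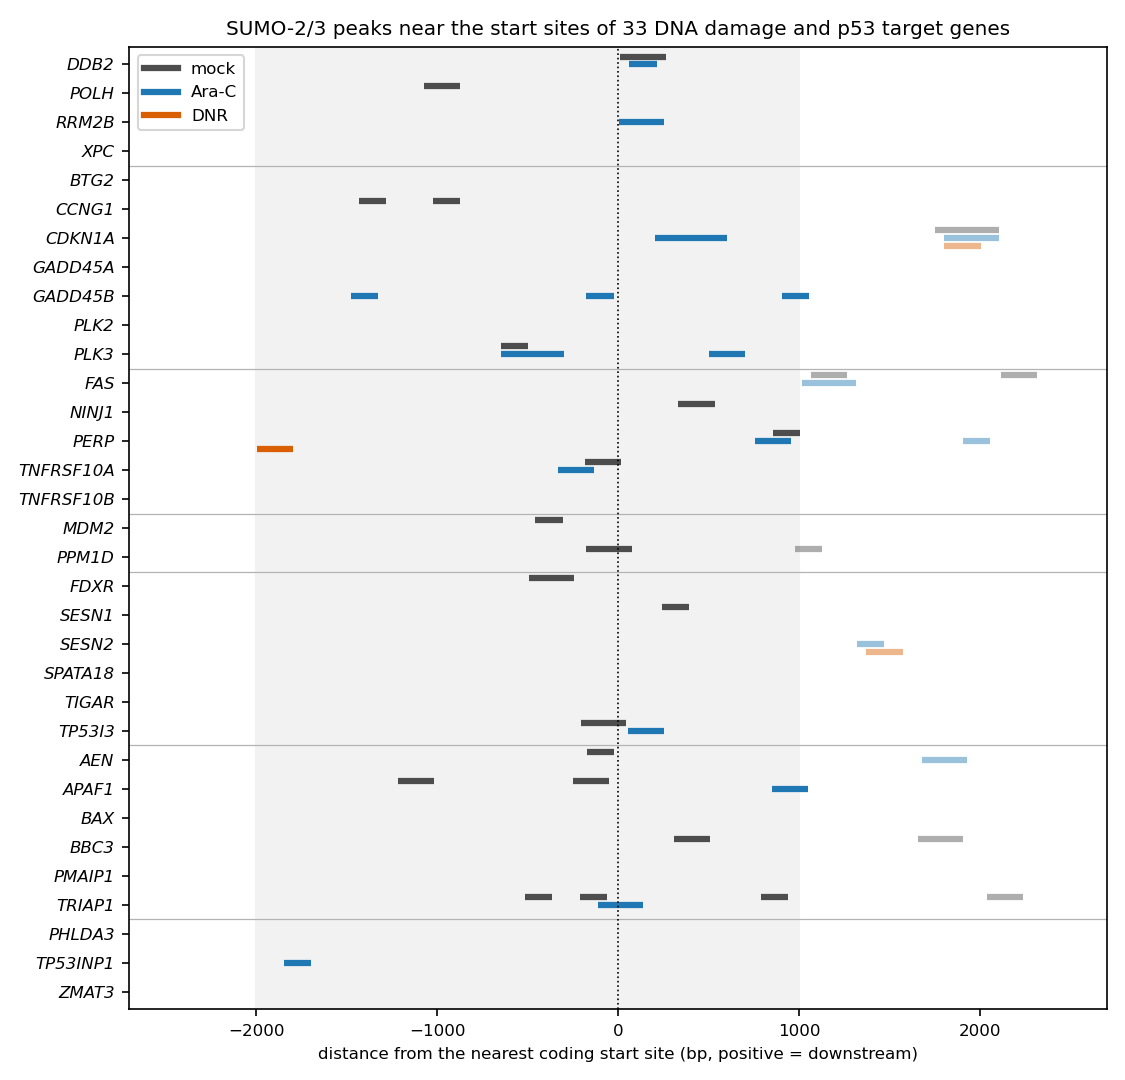
Peaks of the mock (gray), Ara-C (blue) and DNR (orange) lists at each of the 33 target genes (rows, grouped by role with thin lines), drawn to scale by the distance of the peak midpoint from the nearest coding TSS (x axis, bp, positive is downstream, each peak by its own nearest TSS). The shaded band runs from 2000 bp upstream to 1000 bp downstream and paler bars are body peaks. Inside the band the only DNR peak is that of PERP, 1894 bp upstream, and outside it the CDKN1A intron carries a peak of every list.

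The genes were then taken by role. With 2 to 7 genes in a role, each count is to be read beside the shares of all coding genes, which were 24.8% for the mock list, 30.2% for the Ara-C list and 8.06% for the DNR list. Genes that stop the cell cycle or slow growth had start-site peaks in 2 of 7 cases in mock, 3 of 7 under Ara-C and 0 of 7 under DNR. CDKN1A encodes p21, the inhibitor of cyclin-dependent kinases that p53 uses to arrest cells in G1. Its start sites had no mock peak. Under Ara-C a peak of 400 bp (chr6:36646701-36647100) was centered 402 bp downstream of a TSS and touched untranslated sequence. The recurrent CDKN1A peak lay further in, within the intron about 1.9 kb downstream of the nearest TSS. It measured 350 bp in mock (chr6:36648251-36648600), 300 bp under Ara-C (chr6:36648301-36648600) and 200 bp under DNR (chr6:36648301-36648500). All 3 peaks shared the 200 bp printed in capitals above. It was the only target gene peak that overlapped in every list. A further Ara-C peak of 150 bp (chr6:36650501-36650650) lay 4077 bp from a TSS.

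PLK3, a polo-like kinase of the stress response, had a 150 bp mock peak with its midpoint 574 bp upstream of the TSS. The same place had a 350 bp Ara-C peak (chr1:45265401-45265750), and a second Ara-C peak of 200 bp (chr1:45266551-45266750) was 601 bp downstream. No DNR peak lay within 48652 bp of the 5′ end of PLK3. GADD45B, a growth arrest gene that feeds stress kinases, had 0 peaks in mock and DNR and 3 start-site peaks of 150 bp under Ara-C, the nearest 100 bp upstream of the TSS. CCNG1, which encodes cyclin G1, had 2 start-site peaks of 150 bp in mock and 0 in each drug list. BTG2, GADD45A and PLK2 had 0 peaks at start sites and in the body in every list. For GADD45A the nearest mock peak was 3834 bp from the 5′ end, and for PLK2 it was 42385 bp away.

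The feedback genes MDM2 and PPM1D had a start-site peak in mock alone. MDM2 encodes the ubiquitin ligase that degrades p53, and PPM1D the phosphatase WIP1 that switches damage signaling off. MDM2 had a 150 bp mock peak centered 382 bp upstream of a TSS. Under Ara-C it had 0 start-site peaks and 2 body peaks of 200 bp, and under DNR 0 peaks of either kind. PPM1D had a 250 bp mock peak that covered a TSS. Its intron held a mock peak of 250 bp (chr17:58716151-58716400) that overlapped an Ara-C peak of 200 bp (chr17:58716251-58716450), and the 300 bp around each contained the CTCF core consensus without mismatch. DNR gave 0 peaks at PPM1D.

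Genes grouped under mitochondrial apoptosis, with the nuclease AEN placed among them, had start-site peaks in 4 of 6 cases in mock, 2 of 6 under Ara-C and 0 of 6 under DNR. BBC3, which encodes the BH3-only protein PUMA, had 1 start-site peak of 200 bp and 2 body peaks in mock, the widest of 650 bp (chr19:47730651-47731300) in an intron 3481 bp downstream of the nearest TSS. This was the widest peak at any target gene. It had no counterpart, since BBC3 had 0 peaks in the drug lists. APAF1, the scaffold of the apoptosome, had 2 mock start-site peaks of 200 bp (chr12:99037851-99038050 and chr12:99039201-99039400), centered 1118 and 149 bp upstream of the nearest TSS. Its Ara-C peak of 200 bp (chr12:99040301-99040500) lay 951 bp downstream and overlapped neither. In the DNR list APAF1 had 2 intron peaks, at chr12:99067451-99067600 and chr12:99116751-99116950, which overlapped no mock or Ara-C peak.

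TRIAP1, a small inhibitor of apoptosis, had 3 start-site peaks of 150 bp in mock. Only the middle peak (chr12:120884251-120884400), 138 bp upstream of the TSS, overlapped an Ara-C peak. That Ara-C peak was 250 bp wide (chr12:120884051-120884300), covered the TSS and shared 50 bp with it. AEN, an apoptosis-enhancing nuclease, had a 150 bp start-site peak in mock alone, centered 96 bp upstream of a TSS. BAX, the pore-forming protein of the outer mitochondrial membrane, had 1 body peak of 200 bp in mock and 1 of 200 bp under Ara-C, which did not overlap. PMAIP1, which encodes NOXA, had 0 peaks in each list, and its nearest peaks were 4423 bp away in mock, 4773 bp under Ara-C and 9828 bp under DNR.

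Death receptors and cell surface genes had start-site peaks in 3 of 5 cases in mock, 2 of 5 under Ara-C and 1 of 5 under DNR. TNFRSF10A, a receptor for the death ligand TRAIL, had a 200 bp mock peak (chr8:23082601-23082800) over the TSS and a 200 bp Ara-C peak (chr8:23082751-23082950) that shared its upstream end. Under DNR its nearest peak was 458986 bp away. TNFRSF10B, the second TRAIL receptor, had 0 peaks in mock and DNR and 1 body peak of 150 bp under Ara-C. FAS, the receptor for FAS ligand, had no start-site peak by the coding transcripts, although with every annotated transcript counted it had one in mock and in the Ara-C list. Its intron peak of 200 bp in mock lay 1166 bp downstream of the nearest TSS, inside a 300 bp Ara-C peak (chr10:90751651-90751950), and a second mock peak of 200 bp followed. DNR gave 0 peaks at FAS, where the nearest was 39414 bp from the 5′ end.

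PERP, a tetraspan membrane protein of p53-dependent cell death, was the single target gene with a DNR start-site peak. Its 150 bp mock peak was centered 931 bp downstream of the TSS and overlapped a 200 bp Ara-C peak (chr6:138427601-138427800). The DNR peak of 200 bp (chr6:138430351-138430550) lay elsewhere, 1894 bp upstream, near the edge of the window. It overlapped no mock or Ara-C peak. NINJ1, which acts in the rupture of the plasma membrane of dying cells, had a 200 bp mock start-site peak and 0 peaks in each drug list.

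DNA repair genes had start-site peaks in 2 of 4 cases in mock, 2 of 4 under Ara-C and 0 of 4 under DNR. DDB2, which recognizes ultraviolet damage, had the 250 bp mock peak printed above and within it a 150 bp Ara-C peak (chr11:47236751-47236900), each centered 137 bp downstream of a TSS. No DNR peak lay within 27466 bp of the 5′ end of DDB2. POLH, the translesion polymerase eta, had 1 start-site peak and 2 body peaks in mock, each of 200 bp, and 0 under Ara-C and DNR. RRM2B, the p53-induced subunit of ribonucleotide reductase, had an Ara-C start-site peak of 250 bp and 0 peaks in the other lists. XPC, the damage sensor of nucleotide excision repair, had 0 peaks in each list.

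Metabolic and redox genes had start-site peaks in 3 of 6 cases in mock, 1 of 6 under Ara-C and 0 of 6 under DNR. TP53I3, a quinone oxidoreductase, had a 250 bp mock peak (chr2:24307151-24307400) over a TSS and, 50 bp further upstream, a 200 bp Ara-C peak (chr2:24307451-24307650) that did not touch it. FDXR, the mitochondrial ferredoxin reductase, had a 250 bp start-site peak in mock alone. SESN1 and SESN2 encode sestrins, which restrain mTOR signaling under stress. SESN1 had 1 start-site peak of 150 bp and 4 body peaks in mock, 5 body peaks under Ara-C and 0 peaks under DNR. SESN2 had 0 peaks in mock. Its intron held a 150 bp Ara-C peak (chr1:28587351-28587500) and a 200 bp DNR peak (chr1:28587401-28587600) that overlapped, about 1.4 kb downstream of the TSS. TIGAR, which lowers glycolytic flux, had 1 body peak in mock and 1 under DNR, far apart, and SPATA18, a gene of mitochondrial quality control, had 0 peaks in each list.

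Among the last 3 genes, PHLDA3, which represses the kinase AKT, had 0 peaks in each list. TP53INP1, a stress protein linked to autophagy, had an Ara-C start-site peak of 150 bp 1769 bp upstream of the nearest TSS and a DNR body peak of 200 bp. ZMAT3, an RNA-binding regulator of splicing, had 1 body peak of 150 bp under Ara-C and 4 body peaks of 150 to 200 bp under DNR, the most DNR peaks of any target gene. ZMAT3 is 112095 bp long, and none of these peaks overlapped a peak of another list. A peak at a start site or in the body was present at 20 target genes in mock (60.6% against 51.7%), at 20 under Ara-C (60.6% against 61.8%) and at 7 under DNR (21.2% against 37.8%). The mock and Ara-C intervals (43.7 to 75.3) held the coding share. The DNR interval (10.7 to 37.75) ended barely under the coding 37.77%. With peaks of at least 200 bp it held the coding share of 22.4%. In all, 7 of the 33 target genes had no peak at a start site or in the body in any list: BTG2, GADD45A, PHLDA3, PLK2, PMAIP1, SPATA18 and XPC. This was 21.2% (10.7 to 37.8), against 26.4% of coding genes. A further 6 had body peaks only, or 18.2% (8.61 to 34.4) against 30.5%.

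Some marks could not be assigned to 1 gene. Of the 35 start-site peaks of the target genes, 9 peaks, at 4 genes, also lay in the start window of another coding gene. These neighbors were GATC at TRIAP1, IKBIP at APAF1, XPO5 at POLH and NDUFAF6 at TP53INP1. The FAS intron peaks lay in a start window of ACTA2.

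Peak widths come in bins of 50 bp, so small differences between medians carry little weight. In mock the start-site peaks of target genes had a median width of 175 bp (range 150 to 250, 20 peaks), against 200 bp for all coding start-site peaks. Of the 20, TRIAP1 gave 3 and APAF1 and CCNG1 2 each, which the interval below treats as separate. None of the 20 reached 300 bp (Wilson interval 0 to 16.1%), whereas 21.8% of the 5323 coding start-site peaks did. With every annotated transcript counted this no longer held, since the widest of the then 24 peaks measured 650 bp. Under Ara-C the median was 200 bp (range 150 to 400, 14 peaks) and 2 of 14 reached 300 bp, those of PLK3 and CDKN1A, or 14.3% (4.01 to 39.9) against 20.01%. The position relative to the TSS was close to that of other genes. In mock the median distance of the midpoint from the nearest TSS was 394 bp, against 321 bp for coding genes, and 65.0% of peaks lay within 500 bp, against 63.2%. A TSS was covered by 3 of 20 mock peaks (15.0% against 24.0%) and 1 of 14 Ara-C peaks (7.14% against 23.9%).

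The distance from the 5′ end of each gene to the nearest peak does not depend on a window. Its median over the 33 target genes was 3834 bp in mock, 4318 bp under Ara-C and 27157 bp under DNR. Over all coding genes it was 14215, 8068 and 29659 bp. A peak lay within 1 kb of the 5′ end at 13 target genes in mock (39.4% against 19.9%), at 7 under Ara-C (21.2% against 23.7%) and at 0 under DNR (0 of 33 against 5.04%, where 0 of 33 allows up to 9.09%). Within 10 kb the shares were 66.7%, 63.6% and 33.3%, against 43.1%, 54.6% and 25.5%. The target genes thus had the lower median in each list, by the most in mock and by the least under DNR. Their share within 10 kb was also the higher in each list. For Ara-C (21 of 33) its Wilson interval is 46.6 to 77.8 and for DNR (11 of 33) 19.8 to 50.4, and both hold the coding share. Within 1 kb their share was the higher in mock alone.

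**Figure D3:**
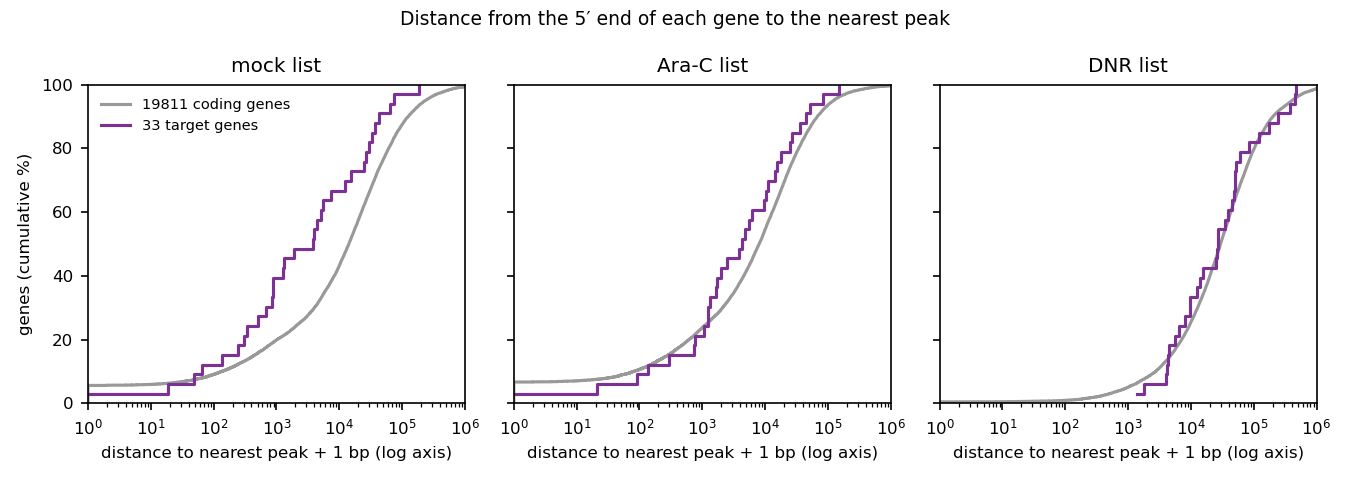
Cumulative share of genes (y axis, percent) by the distance from the 5′ end to the nearest peak (x axis, bp plus 1, log axis) for the 33 target genes (purple) and 19811 coding genes (gray) in each list. The target gene curve lies left of the coding gene curve in mock (medians 3834 and 14215 bp), and the curves run close together under DNR (27157 and 29659 bp).

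Gene bodies outside the start windows were counted per length. The target genes had 22 body peaks in mock, or 2.49 per 100 kb (1.56 to 3.78), against 1.54 for coding genes. The interval lay just above the background here, but held it when peaks were placed by any overlap, with 2.38 (1.47 to 3.64) against 1.54, and when every annotated transcript was counted, with 2.34 (1.39 to 3.70) against 1.48. Under Ara-C they also had 22, or 2.49 per 100 kb (1.56 to 3.78), against 2.60. Under DNR they had 12, or 1.36 per 100 kb (0.703 to 2.38), against 1.23. The 51 other p53 pathway genes had 2.76 (2.18 to 3.45), 4.05 (3.33 to 4.87) and 1.83 (1.36 to 2.40) body peaks per 100 kb in the mock, Ara-C and DNR lists. BCL2, which encodes an inhibitor of apoptosis, held 22 of these 77, 30 of 113 and 18 of 51 peaks. Without BCL2, an alternative chosen after the data were seen, the densities were 2.11 (1.59 to 2.75), 3.19 (2.54 to 3.95) and 1.27 (0.872 to 1.78), and the interval lay above the coding value in mock alone. A body peak was present at 14 target genes in mock (42.4% against 39.4%), at 13 under Ara-C (39.4% against 50.3%) and at 7 under DNR (21.2% against 33.5%). Of the 22 mock body peaks, 3 overlapped an Ara-C peak (13.6% against 12.8%), in CDKN1A, FAS and PPM1D, and 1 a DNR peak (4.55% against 2.51%), in CDKN1A. Introns held 51 of the 56 body peaks of the 3 lists. The target genes were shorter than coding genes, with a median length of 18915 bp against 26979 bp, and the part of gene length in these densities was not tested.

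**Figure D4:**
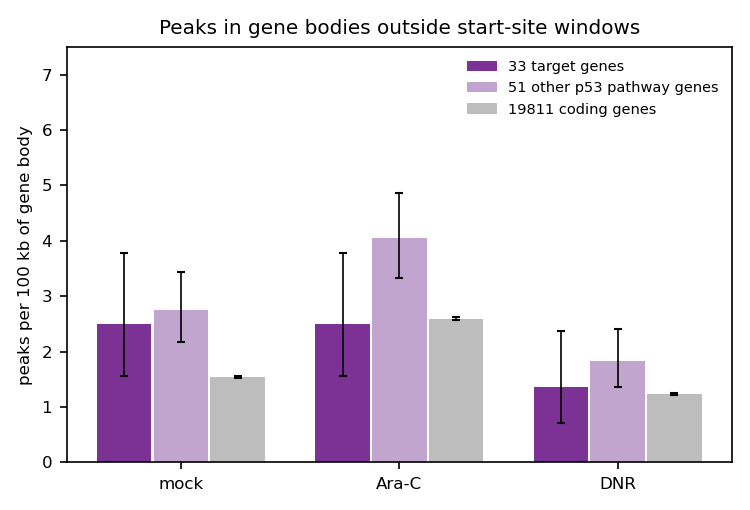
Body peaks per 100 kb of gene body outside start windows (y axis) in the mock, Ara-C and DNR lists for the 33 target genes, 51 other p53 pathway genes and 19811 coding genes, with exact Poisson 95% intervals as error bars. The target genes had 2.49 in the mock and Ara-C lists alike and 1.36 under DNR, and the other pathway genes 2.76, 4.05 and 1.83.

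Sequence around the peaks was searched on both strands, in 300 bp centered on each peak. A pair of p53 half-sites up to 13 bp apart, with up to 1 mismatch, was found around 0 of 20 mock, 0 of 14 Ara-C and 0 of 1 DNR start-site peaks of target genes, against 0.639%, 0.648% and 1.05% of coding start-site peaks. It was found around 0 of 22, 0 of 22 and 0 of 12 body peaks, against 1.02%, 0.928% and 0.822%. The CTCF core consensus without mismatch was absent around the 20 mock start-site peaks (1.95% of coding ones) and present around 1 of 14 under Ara-C, that of GADD45B (7.14% against 1.71%). With 1 mismatch it was present around 3 of 20 in mock, those of APAF1, BBC3 and TP53I3, or 15.0% (5.24 to 36.0) against 8.66%. CCGGAAG was present around 1 of 20 mock peaks, at AEN (5.00% against 11.4%), and around 2 of 14 Ara-C peaks, at GADD45B and RRM2B (14.3% against 10.7%). TGACGTCA was absent around all start-site peaks of the target genes, against 1.73% in mock.

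The promoters themselves, 250 bp before to 50 bp after the 5′ end, were rich in G+C. The median was 66.0% over the target genes and 60.3% over coding genes. It was 69.5% for the 16 target genes with a mock start-site peak and 62.0% for the 17 without, and over coding genes the same split gave 62.0% and 59.7%. The p53 half-site pair with up to 1 mismatch was in 0 of 33 target promoters and 0.651% of coding promoters. CCGGAAG was in 2 of 33 (6.06% against 11.7%), AEN and FDXR, and TGACGTCA in 1 of 33 (3.03% against 2.31%), PPM1D.

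The wider p53 pathway was counted in 51 further genes, among them kinases, cyclins and regulators of p53. A start-site peak was present at 16 in mock (31.4%, 20.3 to 45.0), at 18 under Ara-C (35.3%, 23.6 to 49.0) and at 1 under DNR (1.96%, 0.347 to 10.3), against 24.8%, 30.2% and 8.06% of coding genes. Of the 16, 13 had one again under Ara-C (81.2%, 57.0 to 93.4) and 1 under DNR (6.25%, 1.11 to 28.3), against 61.9% and 13.5%. Each of these intervals held the share of coding genes. The share found again under Ara-C was 43.8% in the target genes, and the intervals of the 2 shares overlap. In width the lists differed: 8 of 21 mock start-site peaks of these genes reached 300 bp (38.1%, 20.8 to 59.1), against the 0 of 20 of the target genes. CCND3, which encodes cyclin D3, was the gene with a start-site peak in every list. It had 1 start-site peak in the mock list, 3 in the Ara-C list and 2 in the DNR list, none of which overlapped between lists. Of these, the Ara-C peak at chr6:42018251-42018550 and the DNR peak at chr6:42017201-42017450 also lay in a start window of another coding gene. The p53 half-site pair without mismatch was found around 1 of its 2 DNR start-site peaks. That was the single case among 1624 coding start-site peaks of that list, and whether any factor binds there was not tested.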

How the data were processed

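SUMO-2/3 ChIP-seq of HL-60 cells was deposited as 1 list of peak positions per condition. Per the labels and the study's methods, the authors aligned single-end reads to hg19 with CASAVA 1.8.2, scaled and input-subtracted the signal in 50 bp bins with Pasha, and called peaks above a fixed value of 32, bridging gaps up to 100 bp. Since the threshold was a fixed number, depth and scaling move the number of peaks. Starts were read as 1-based, and ends as the base after the last bin. GENCODE 44 lifted to GRCh37, the assembly of hg19, gave 19811 coding genes with 55870 start sites of basic coding transcripts on chromosomes 1 to 22, X and Y, and 0 peaks lay past a chromosome end.

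A peak was placed by its midpoint. Each count was set beside the same count over all coding genes. As there is 1 library a condition, nothing was tested and p-values are left out. The members, the lists and the alternatives were chosen with earlier results of these data known. Every target gene was accounted for; each start-site peak is given where a gene had one in at least 2 lists or one of at least 300 bp, and sequences were printed where a mock start-site peak overlapped an Ara-C peak, except at TRIAP1 and TNFRSF10A. The steps were tested on simulated data. Computations used Python 3.11.15, numpy 2.4.6, pandas 2.3.3 and scipy 1.17.1. The values of 1 pathway gene are not reported here.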

Additional observations from a re-analysis of the deposited data

How the results depend on the processing

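No paired analysis was possible because mock, Ara-C and DNR are 1 pooled library each. The 22 results were recomputed under those of 8 alternative settings that bear on them, giving 90 values, each setting fixed with the design. Of the values for the target genes and the other p53 pathway genes, 59 stayed within 1.5 times, or within the counting interval for a density, and 16 moved. With peaks of at least 200 bp, target genes with a mock start-site peak numbered 9, of which 3 had one again under Ara-C (33.3% against 57.3% of coding genes) and 0 under DNR (against 9.09%). The peak of 1 of the 9 was overlapped by an Ara-C peak, or 11.1% (1.99 to 43.5) against 45.1%, so here the interval lay under the coding share. The Ara-C body density was 1.13 per 100 kb, against 1.21 over coding genes. Fewer peaks enter by construction. With the window ending at the TSS, 6 target genes had an Ara-C start-site peak (18.2% against 23.5%), 4 mock genes had one again under Ara-C (36.4% against 58.5%) and 0 under DNR (against 10.9%), 3 had their peak overlapped under Ara-C (27.3% against 45.7%), and 10 of the other pathway genes had a mock peak (19.6% against 19.2%). Here the window is shorter by construction. With every annotated transcript, 2 target genes, APAF1 and PERP, had a DNR start-site peak (6.06%), 2 mock genes had one again under DNR (11.8% against 23.5%), and 8 of the other pathway genes had a DNR peak (15.7%), where the share of coding genes rose to 14.5%. With the 5′ end alone, 3 of the other pathway genes had a DNR peak (5.88% against 6.22%). Requiring 50% of the mock peak left 3 genes overlapped under Ara-C (18.8% against 36.5%). Allowing 1 mismatch put the CTCF core around 3 mock start-site peaks, where the exact core was around 0. Whether the named constructions moved the shares, and what moved the other values, was not tested. Under each of the 5 settings for counting start sites, more target genes had a start-site peak in mock than under Ara-C, and 1 or 2 had one under DNR. With peaks of at least 200 bp the mock and Ara-C counts were only 9 and 8. In the main setting the 2 intervals overlapped (32.5 to 64.8 and 19.8 to 50.4). Over coding genes the mock share was the lower under each of the 5, such as 17.2% against 21.1% with peaks of at least 200 bp. The coding DNR share ran from 4.04% to 14.5%. Read depth is unknown, so a loss of peaks cannot be told apart from a shallower library.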
